A study of Mus musculus with 12 samples.

Results

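The homeobox, Sox, Fox and Gata transcription factors, with the related Klf, Tbx, Runx, Grhl, Zeb, Twist and Pax families, were described across 3 groups of mouse skin. Members were found by gene symbol from a list of family stems, and the rule itself used no measured value. The members and the gene lists below were chosen with earlier results of these data known. The rule found 80 genes with 120 listed transcripts, of 7902 genes with 10720 transcripts in all. Of the 80 genes, 77 passed edgeR's default filter on low counts and were tested. The symbols of Pbxip1, Tbxas1, Twistnb and Runx1t1 match the rule, but these 4 genes encode no DNA-binding factor of the families, which leaves 76 factors in 22 symbol families. Bulk RNA was sequenced from 12 skin samples, 4 in each group. The M+NSPCC1 group combined a skin ageing model with NSPCC1, an extract of grape seed, the Model group had the ageing model alone, and the Ctrl group was control skin. In the model, mice received D-galactose, a sugar used to provoke oxidative and glycation damage, together with ultraviolet A and B light, so both M+NSPCC1 and Model skin carry these exposures. The sources used here give no doses, exposure times, body site, hair removal, strain, age or sex. Whether each sample is a different animal is not labelled, and p-values therefore cover only a sample-to-sample spread that may be technical.

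These families read position, lineage and differentiation state in skin. Homeobox factors of the Dlx, Hox and Msx groups, Fox factors such as Foxn1 and the Gata and Sox factors direct the layers of the growing hair follicle, where Hoxc13, Foxn1 and Dlx3 act on the hair keratin genes. Prrx, Twist, Tbx and Zeb factors mark the mesenchyme of the dermis, and homeobox factors such as Six4 act in skeletal muscle. Hox genes also keep a record of body position in dermal fibroblasts.

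Each library held between 9717338 and 10952623 estimated counts in the tables. The tables hold a selection of transcripts that mostly differ from Ctrl, so shares of genes that changed hold within this selection only. Levels are counts scaled to the library's effective total (CPM), and FPKM, which is scaled by transcript length, is used where genes are set side by side. For 42 members the summed count was not whole, and their values describe the listed transcripts alone. Markers of other cell types and tissues moved with the groups. Hair shaft and inner root sheath markers held 3.32% to 5.66% of the summed count in M+NSPCC1, 4.41% to 6.61% in Model and 0.0132% to 0.0462% in Ctrl libraries, and 14 of 14 were higher in Model than in Ctrl. Skeletal muscle markers held 1.298% to 2.06% in M+NSPCC1, 0.507% to 1.81% in Model and 8.69% to 9.16% in Ctrl libraries, with 17 of 17 lower in Model. Melanocyte markers were higher in Model for 8 of 8. Endothelial markers were lower for 7 of 7, fibroblast markers for 7 of 7, Schwann cell markers for 8 of 8, adipocyte markers for 5 of 5 and immune markers for 8 of 8. Of 4 interfollicular epidermis markers, 3 were higher and 1 was lower in Model, and their share was 0.531% to 0.863% in M+NSPCC1, 0.498% to 0.921% in Model and 0.630% to 0.854% in Ctrl libraries, so these markers were present in all groups. The part of these shares in the results on members was not tested. In bulk skin, fewer cells of a type and less RNA per cell cannot be told apart.

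In Model against Ctrl skin, factors of the hair follicle were higher, factors of dermal mesenchyme were mostly lower and factors of muscle were split. Of the 77 tested members, 42 were higher in Model, 30 were lower and 5 (Hoxa9, Hoxa10, Sox13, Tbx18 and Runx1t1) did not pass an adjusted p of 0.05. The adjusted p came from the quasi-likelihood test of edgeR, with the Benjamini-Hochberg method over all genes tested. These genes come from a selection of transcripts that mostly differ from Ctrl. Adjusted p-values against Ctrl take no account of how the transcripts were chosen, and calls near 0.05 are the least certain. Over all 7638 genes tested, 90.5% passed, 49.1% higher and 41.4% lower, so the share of members that passed, 93.5%, is near the background and is no result about them. The shares of 49.1% higher and 41.4% lower are also the background for the counts of every gene list and marker list. Some factors, such as Foxo1 and Gata3, stand on more than 1 role list and are counted in each. The 4 Model libraries lay wholly above the 4 Ctrl libraries for 37 members and wholly below for 30, against 43.2% and 39.8% of all genes. The median absolute log2 fold change was 1.82 over members and 1.10 over all genes, and 18.2% of members moved by 3 or more on the log2 scale, against 11.3% of all genes. The members together took 0.542% to 0.577% of the summed count in M+NSPCC1, 0.503% to 0.600% in Model and 0.295% to 0.312% in Ctrl libraries. In each of the 22 members with several listed transcripts, all transcripts had mean levels on the same side of Ctrl.

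**Figure D1:**
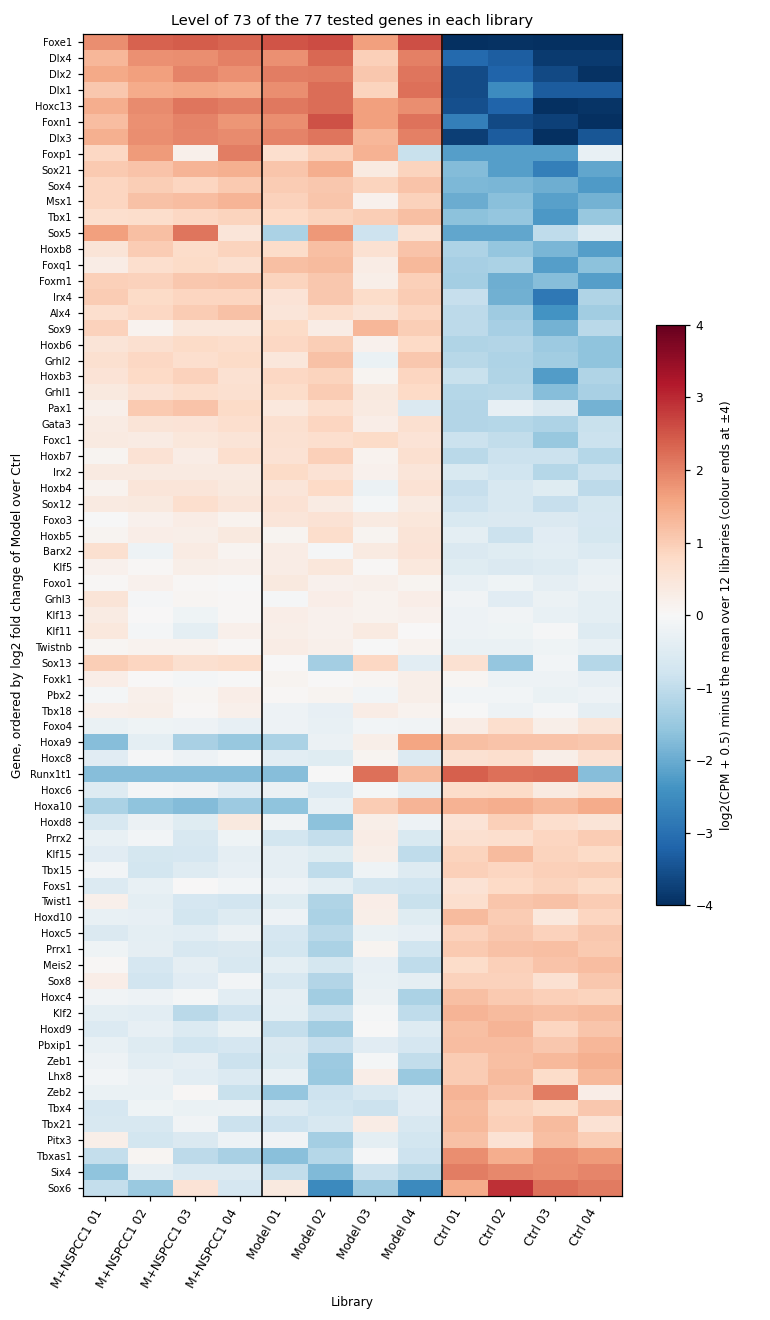
Level of 73 of the 77 tested genes (rows, ordered by the log2 fold change of Model over Ctrl) in each library (columns: M+NSPCC1, Model, Ctrl), as log2(CPM + 0.5) minus its mean over the 12 libraries, with the colour ending at 4 in either direction. Foxe1, Dlx4, Dlx2, Dlx1, Hoxc13, Foxn1 and Dlx3 at the top are high in all M+NSPCC1 and Model libraries and low in all Ctrl libraries, while Six4 and Sox6 at the bottom run the other way.

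Follicle epithelium factors carried the largest rises. Of 23 such factors listed, 20 were in the tables and all 20 passed the test, 19 higher in Model and 1 lower. Their median log2 fold change of Model over Ctrl was 2.77, against 0.25 over all genes tested. This list was chosen with earlier results of these data known, so its counts and median are description and no test. Dlx3, a homeobox factor needed for hair shaft and inner root sheath formation, lies at chr11:95120117-95125296. It had 588, 798, 839 and 817 CPM in M+NSPCC1 libraries, 865, 973, 550.3 and 879 CPM in Model libraries and 15.7, 21.1, 12.2 and 20.1 CPM in Ctrl libraries. Every Model and M+NSPCC1 library was far above every Ctrl library, and Model 03 and M+NSPCC1 01 were the lowest of their groups. On the log2 scale this was a change of 5.56 ± 0.25 (SE, edgeR adjusted p = 1.93e-08) in Model over Ctrl. Dlx3 was also the member with the highest level per length in Model skin, with 201 ± 32.7 FPKM in M+NSPCC1, 211 ± 50.7 FPKM in Model and 3.93 ± 0.958 FPKM in Ctrl libraries (SD, n = 4 each).

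Hoxc13, which acts on hair keratin genes (chr15:102921131-102928814), had 183, 248, 295 and 275 CPM in M+NSPCC1 libraries, 289, 309.9, 209 and 244 CPM in Model libraries and 5.31, 6.74, 1.93 and 3.89 CPM in Ctrl libraries. The groups with the ageing model did not overlap Ctrl, and the log2 fold change of Model over Ctrl was 5.88 ± 0.31 (SE, edgeR adjusted p = 5.04e-08). Foxe1, a forkhead factor of thyroid and hair follicle, showed the largest rise of all members. It had 58.1, 83.9, 85.99 and 81.5 CPM in M+NSPCC1 libraries, 92.5, 99.2, 50.1 and 96.7 CPM in Model libraries and 0.332, 0.552, 0 and 0 CPM in Ctrl libraries, and 2 Ctrl libraries were at 0. On the log2 scale Foxe1 changed by 8.52 ± 0.49 (SE, edgeR adjusted p = 7.46e-08) in Model over Ctrl, and it was 9.45 without Ctrl 02. Foxn1, the factor lost in nude mice, had 104, 155, 175 and 151 CPM in M+NSPCC1 libraries, 159, 257, 138 and 199.5 CPM in Model libraries and 6.08, 3.09, 2.79 and 0.971 CPM in Ctrl libraries. All 8 libraries with the ageing model exceeded the Ctrl libraries by a wide margin, with a log2 fold change of Model over Ctrl of 5.86 ± 0.40 (SE, edgeR adjusted p = 2.52e-07).

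The other Dlx genes, homeobox factors arranged in neighbouring pairs on the chromosomes, rose with Dlx3. Dlx1 had 14.8, 19.8, 20.9 and 19.5 CPM in M+NSPCC1 libraries, 25.8, 33.3, 12.8 and 32.5 CPM in Model libraries and 0.111, 0.773, 0.215 and 0.216 CPM in Ctrl libraries. Dlx2 had 35.9, 39.4, 49.9 and 44.9 CPM in M+NSPCC1 libraries, 51.6, 52.7, 26.4 and 55.5 CPM in Model libraries and 0.553, 0.884, 0.537 and 0.324 CPM in Ctrl libraries. Dlx4 had 17.5, 24.8, 25.4 and 28.1 CPM in M+NSPCC1 libraries, 24.8, 34.4, 13.3 and 28.3 CPM in Model libraries and 0.332, 0.221, 0 and 0 CPM in Ctrl libraries. In all 3 genes the Ctrl libraries stayed under 1 CPM and no Model or M+NSPCC1 library came near them, while Model 03 was the lowest Model library each time. The log2 fold changes of Model over Ctrl were 6.26 ± 0.48 (SE, edgeR adjusted p = 4.80e-07) for Dlx1, 6.31 ± 0.33 (SE, edgeR adjusted p = 4.91e-08) for Dlx2 and 7.41 ± 0.56 (SE, edgeR adjusted p = 4.70e-07) for Dlx4. Without Ctrl 02 the value of Dlx1 was 7.08, and without Ctrl 01 that of Dlx4 was 8.22.

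Factors of the inner root sheath and the follicle's desmosomes rose less steeply. Gata3, which specifies the inner root sheath, had 213, 242, 249.9 and 271 CPM in M+NSPCC1 libraries, 266, 309, 207 and 267 CPM in Model libraries and 75.98, 77.1, 72.6 and 91.3 CPM in Ctrl libraries. Grhl1, a grainyhead factor that acts on desmosome genes, had 367, 418, 455 and 439 CPM in M+NSPCC1 libraries, 463, 560.1, 369.98 and 484 CPM in Model libraries and 126, 128, 85.3 and 114 CPM in Ctrl libraries. Irx2, an Iroquois homeobox factor, had 258, 259, 257 and 259 CPM in M+NSPCC1 libraries, 347, 299.5, 228 and 284 CPM in Model libraries and 132, 116, 90.9 and 110.1 CPM in Ctrl libraries. None of the 3 had a Ctrl library that reached the lowest Model or M+NSPCC1 library. The log2 fold changes of Model over Ctrl were 1.73 ± 0.13 (SE, edgeR adjusted p = 3.67e-07) for Gata3, 2.05 ± 0.15 (SE, edgeR adjusted p = 4.23e-07) for Grhl1 and 1.37 ± 0.13 (SE, edgeR adjusted p = 2.53e-06) for Irx2. Foxc1, which keeps hair follicle stem cells quiescent, had 94.4, 92.9, 102 and 105 CPM in M+NSPCC1 libraries, 114, 117, 125 and 107 CPM in Model libraries and 40.3, 36.8, 25.7 and 40.6 CPM in Ctrl libraries. Its M+NSPCC1 libraries all lay below its Model libraries and above its Ctrl libraries, and the log2 fold change of Model over Ctrl was 1.69 ± 0.13 (SE, edgeR adjusted p = 4.88e-07).

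The rest of the follicle factors that rose in Model, by log2 fold change over Ctrl, were Sox21 of the hair cuticle at 3.18, Msx1 at 2.82, Tbx1 at 2.73, Foxq1 of the hair medulla at 2.69, Irx4 at 2.46, the stem cell factor Sox9 at 2.19 and Barx2 at 0.83. For these 7 genes no Model library overlapped Ctrl. Foxp1, a forkhead repressor, was measured with less precision. It had 3.67, 7.14, 2.19 and 9.14 CPM in M+NSPCC1 libraries, 3.22, 3.98, 5.56 and 0.746 CPM in Model libraries and 0, 0, 0 and 1.403 CPM in Ctrl libraries, so that Model 04 lay below Ctrl 04 and the other 3 Ctrl libraries were at 0. The log2 fold change of Model over Ctrl was 3.21 ± 1.12 (SE, edgeR adjusted p = 0.0172), and it was 8.13 without Ctrl 04. In M+NSPCC1 against Ctrl the same list had 19 higher and 1 lower, with a median log2 fold change of 2.85, and this comparison shares its Ctrl libraries with that of Model.

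**Figure D2:**
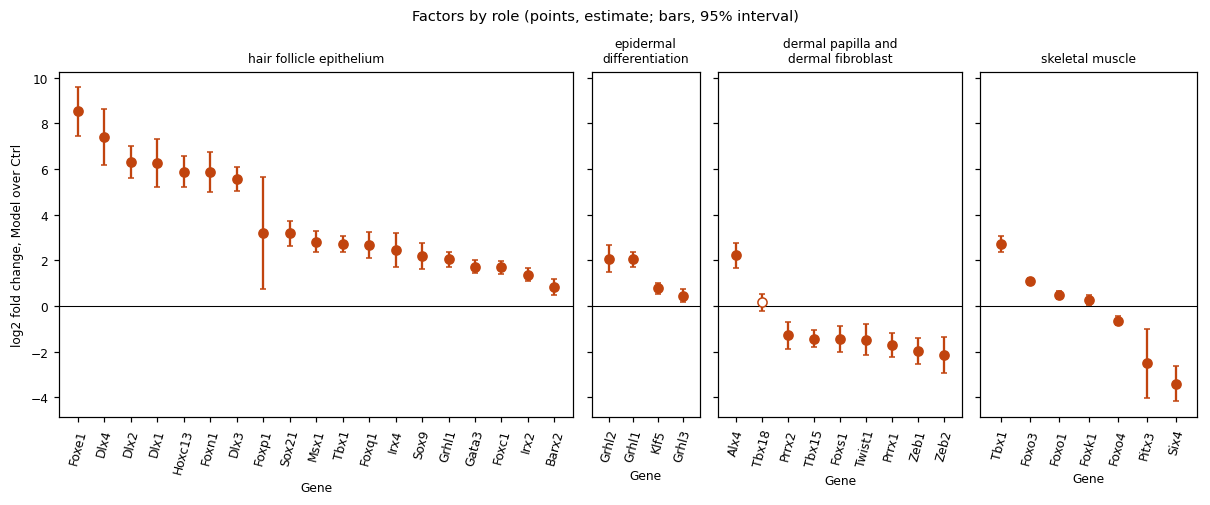
Log2 fold change of Model over Ctrl (vertical axis) for tested members of 4 role lists (horizontal axis, ordered by value), with points for the edgeR estimate and bars for its 95% interval. An open point did not pass an adjusted p of 0.05. The follicle factors run from 8.52 for Foxe1 to 0.83 for Barx2, and most dermal factors lie below 0.

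Promoter sequences of 51 of the 80 members were in the RefSeq table of build GRCm38.p6. The 250 bases before the start are shown for Foxn1 and Dlx2, which rose, for Prrx1, the most abundant dermal factor that fell, and for Hoxa10, which had the smallest p in M+NSPCC1 against Model. For Foxn1 and Prrx1 the start in that table lies inside the annotated gene interval, and for Hoxa10, with 2 starts in the table, the outer one is shown. All 4 lie on the minus strand and are written 5′ to 3′ with matches to the searched letters in capitals. They lie at chr11:78386609-78386858 for Foxn1, chr2:71546755-71547004 for Dlx2, chr1:163313651-163313900 for Prrx1 and chr6:52240855-52241104 for Hoxa10.
Foxn1: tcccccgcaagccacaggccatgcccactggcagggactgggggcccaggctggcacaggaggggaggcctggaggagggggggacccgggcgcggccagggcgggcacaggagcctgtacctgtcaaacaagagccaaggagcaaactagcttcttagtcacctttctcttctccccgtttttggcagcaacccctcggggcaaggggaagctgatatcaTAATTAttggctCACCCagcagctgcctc
Dlx2: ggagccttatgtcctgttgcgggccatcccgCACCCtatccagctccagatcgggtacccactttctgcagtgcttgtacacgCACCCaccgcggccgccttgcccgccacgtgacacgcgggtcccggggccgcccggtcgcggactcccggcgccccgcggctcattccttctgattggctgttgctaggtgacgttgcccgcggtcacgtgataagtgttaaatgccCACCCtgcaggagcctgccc
Prrx1: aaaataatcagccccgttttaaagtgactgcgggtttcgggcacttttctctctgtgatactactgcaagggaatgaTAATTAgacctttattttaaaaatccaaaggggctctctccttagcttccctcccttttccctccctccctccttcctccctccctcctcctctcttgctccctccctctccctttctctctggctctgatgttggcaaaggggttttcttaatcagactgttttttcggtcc
Hoxa10: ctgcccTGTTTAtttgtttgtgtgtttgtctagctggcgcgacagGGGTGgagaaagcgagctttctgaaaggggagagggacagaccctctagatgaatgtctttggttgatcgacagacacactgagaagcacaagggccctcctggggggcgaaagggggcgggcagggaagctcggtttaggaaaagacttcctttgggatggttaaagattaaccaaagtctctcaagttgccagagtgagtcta
The letters searched on both strands were TAATTA for the homeodomain core, ACAAAG for the Sox and Lef core, TAAACA for the Fox core, AGATAA for the Gata core, CAGGTG for the Zeb E-box and CACCC for the Klf box, and none of these holds another. In Foxn1 a homeodomain core begins 29 bases and a Klf box 17 bases before the start. In Dlx2 Klf boxes begin 219, 167 and 20 bases before it. In Prrx1 a homeodomain core begins 173 bases before it, and in Hoxa10 a Fox core begins 244 and a Klf box 205 bases before it. Matches were counted per gene, and a gene with several starts counted if any of its windows held the letters. The homeodomain core was in 3 of the 51 members with a promoter sequence and in 5.65% of all 27025 genes with such a sequence. The Sox and Lef core was in 5 of 51 against 18.6% of all, the Fox core in 5 against 13.5%, the Gata core in 4 against 11.4%, the Zeb E-box in 6 against 19.4% and the Klf box in 33 against 54.5%. Among members with a promoter sequence, 25 were higher in Model and 20 were lower. In these, the homeodomain core was in 2 and 1, the Fox core in 3 and 1, and the Gata core in 1 and 3. A match describes letters in this window and is not a binding site.

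Known targets and partners of the follicle factors were read from further gene lists. Hair keratin genes, which Hoxc13, Foxn1 and Dlx3 act on, were higher in Model for 11 of 11, with a median log2 fold change over Ctrl of 10.68, and Krt33b at 12.16, Krt82 at 10.097 and Krt32 at 7.199 had the smallest p. Other follicle transcription factors were higher for 16 of 17 tested, among them the vitamin D receptor Vdr at 2.73, Tfap2a at 2.39 and the Hedgehog effector Gli2 at 1.57. The 1 that fell was Nfatc1, a factor of quiescent follicle stem cells, at -1.81. Cofactors of these families were split, with 10 of 15 higher and 5 lower, beside 49.1% higher and 41.4% lower over all genes tested. The 3 cofactors with the smallest p were Tgif1 at 1.54, Lmo4 at 1.23 and Tle5 at -1.01.

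All 4 listed factors of epidermal differentiation in the tables were higher in Model, with a median log2 fold change over Ctrl of 1.41. Of all genes tested, 49.1% were higher. They were Grhl1, described above, Grhl2, Grhl3 and Klf5. Grhl2, which maintains epithelial junctions, had 82.5, 93.2, 85.3 and 89.8 CPM in M+NSPCC1 libraries, 73.2, 121, 43.95 and 111 CPM in Model libraries and 24.4, 21.98, 19.6 and 16.9 CPM in Ctrl libraries. Model 03 was the lowest Model library and still exceeded every Ctrl library, with a log2 fold change of Model over Ctrl of 2.07 ± 0.27 (SE, edgeR adjusted p = 2.25e-05). Klf5, a factor of proliferating basal keratinocytes, had 46.02, 42.5, 48.5 and 47.1 CPM in M+NSPCC1 libraries, 50.2, 55.9, 41.7 and 54.3 CPM in Model libraries and 29.2, 27.2, 28.1 and 33.1 CPM in Ctrl libraries. No Ctrl library reached the others, and the log2 fold change of Model over Ctrl was 0.78 ± 0.11 (SE, edgeR adjusted p = 4.00e-05). Grhl3, which is needed for the skin barrier, had 98.3, 66.7, 72.1 and 70.2 CPM in M+NSPCC1 libraries, 66.7, 81.4, 74.5 and 82.2 CPM in Model libraries and 61.6, 49.5, 58.4 and 51.9 CPM in Ctrl libraries. Its smallest Model value was near the largest Ctrl value, and the log2 fold change of Model over Ctrl was 0.46 ± 0.13 (SE, edgeR adjusted p = 0.00563), a call that was lost with DESeq2's size factors.

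Dermal papilla and dermal fibroblast factors moved the other way for the most part. Of 20 listed, 11 were in the tables and 10 were tested, of which 7 were lower in Model, 2 were higher and Tbx18 did not pass, with a median log2 fold change of Model over Ctrl of -1.44. Of all genes tested, 41.4% were lower and 49.1% higher, and the list itself was not tested. The share of fibroblast markers was 0.555% to 0.713% in M+NSPCC1, 0.364% to 0.946% in Model and 1.03% to 1.24% in Ctrl libraries. Prrx1, a homeobox factor of limb and dermal mesenchyme, had 161, 142, 117 and 121 CPM in M+NSPCC1 libraries, 109, 75.8, 195 and 106 CPM in Model libraries and 378, 414, 423 and 378 CPM in Ctrl libraries. Ctrl libraries were above all others, and Model 03 was the highest Model library. Model over Ctrl was at -1.71 ± 0.24 (SE, edgeR adjusted p = 3.97e-05) on the log2 scale. Tbx15, a T-box factor of dorsal and ventral coat patterning, had 80.5, 52.02, 61.6 and 70.2 CPM in M+NSPCC1 libraries, 68.7, 42.7, 78.2 and 60.9 CPM in Model libraries and 171, 158, 170.1 and 172 CPM in Ctrl libraries. Twist1, a helix-loop-helix factor of mesenchyme, had 50.97, 33.5, 27.2 and 25.4 CPM in M+NSPCC1 libraries, 31.4, 18.7, 53.5 and 23.3 CPM in Model libraries and 69.6, 94.7, 98.5 and 89.8 CPM in Ctrl libraries. Neither gene had a Model or M+NSPCC1 library that reached the lowest Ctrl library. The log2 fold changes of Model over Ctrl were -1.42 ± 0.17 (SE, edgeR adjusted p = 1.53e-05) for Tbx15 and -1.47 ± 0.31 (SE, edgeR adjusted p = 9.43e-04) for Twist1.

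The remaining dermal factors that fell in Model were Prrx2 at -1.27, Foxs1 of pericytes and neural crest at -1.45, and the zinc finger repressors Zeb1 at -1.97 and Zeb2 at -2.16 (log2 fold change over Ctrl). Alx4, a homeobox factor of craniofacial and limb mesenchyme, was among the 2 that rose, and had 30.3, 33.6, 38.4 and 42.3 CPM in M+NSPCC1 libraries, 26.4, 30.6, 26.6 and 34.3 CPM in Model libraries and 8.74, 6.63, 3.11 and 6.8 CPM in Ctrl libraries. All Model and M+NSPCC1 libraries exceeded the Ctrl libraries, with a log2 fold change of Model over Ctrl of 2.22 ± 0.25 (SE, edgeR adjusted p = 9.01e-06). Tbx18, a factor of dermal papilla precursors, had 11.6, 12.1, 10.5 and 11.7 CPM in M+NSPCC1 libraries, 8.81, 8.06, 12.6 and 11.3 CPM in Model libraries and 9.95, 8.84, 9.77 and 7.88 CPM in Ctrl libraries. The groups overlapped, the log2 fold change of Model over Ctrl was 0.16 ± 0.18 (SE, edgeR adjusted p = 0.391), and its direction turned with DESeq2's size factors, to -0.01. Runx2, the osteoblast factor, was listed at 0 in all 12 libraries.

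Factors of pigment cells, Schwann cells and neural crest were represented by 5 of 9 listed, with 4 lower in Model and Sox5 higher. Of all genes tested, 41.4% were lower and 49.1% higher. Sox6, a SoxD factor of muscle and neural crest derivatives, showed the largest fall among the tested members. It had 1.01, 0.556, 3.83 and 1.33 CPM in M+NSPCC1 libraries, 3.31, 0, 0.595 and 0 CPM in Model libraries and 7.74, 21.6, 13.1 and 11.9 CPM in Ctrl libraries. All Ctrl libraries were above all others, and 2 Model libraries were at 0. The log2 fold change of Model over Ctrl was -3.78 ± 1.08 (SE, edgeR adjusted p = 0.00612), and it was -6.05 without Model 01. Zeb2, which acts in Schwann cell maturation and in melanocytes, had 28.1, 28, 34.2 and 17.8 CPM in M+NSPCC1 libraries, 11.1, 18.8, 21.3 and 24.9 CPM in Model libraries and 86.2, 73.6, 139 and 40.3 CPM in Ctrl libraries. Ctrl libraries differed among themselves by over 3-fold and still lay above the rest, with a log2 fold change of Model over Ctrl of -2.16 ± 0.36 (SE, edgeR adjusted p = 1.79e-04). Foxs1 had 2.11, 2.596, 3.28 and 3.02 CPM in M+NSPCC1 libraries, 2.75, 2.41, 1.79 and 1.68 CPM in Model libraries and 5.09, 6.07, 6.55 and 5.94 CPM in Ctrl libraries. Its Ctrl libraries did not overlap the others, and the log2 fold change was -1.45 ± 0.26 (SE, edgeR adjusted p = 3.11e-04). Sox8, a SoxE factor, fell by 1.80 on the log2 scale.

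Sox5, the other SoxD member, had 6.14, 4.36, 8.74 and 2.49 CPM in M+NSPCC1 libraries, 0.379, 6.49, 0.695 and 2.703 CPM in Model libraries and 0, 0, 0.537 and 0.971 CPM in Ctrl libraries. Model 01 lay below Ctrl 03 and Ctrl 04, Model 03 lay below Ctrl 04, and the log2 fold change of Model over Ctrl was 2.72 ± 1.08 (SE, edgeR adjusted p = 0.0314). Without Model 02 it was 1.74 with an edgeR adjusted p of 0.132, and without Ctrl 04 it was 3.74. The call was also lost without Ctrl 01, Ctrl 02, Ctrl 03 or Model 04, at 2.32 to 2.93. Sox10 and Pax3, the lineage factors of pigment and Schwann cells, were not analysed here. Melanocyte markers held 0.185% to 0.2898% of the summed count in M+NSPCC1, 0.0956% to 0.281% in Model and 0.001998% to 0.00503% in Ctrl libraries, and Schwann cell markers held 0.0291% to 0.0428% in M+NSPCC1, 0.0165% to 0.0388% in Model and 0.137% to 0.1702% in Ctrl libraries. Pigment genes were higher in Model for 8 of 8, with Tyr at 7.57, Slc45a2 at 6.43 and Tyrp1 at 5.98. Of 6 myelin genes, 5 were lower and Erbb3 was higher, with Pmp22 at -2.62 and Mbp at -2.404 (log2 fold change of Model over Ctrl).

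Factors of skeletal muscle development were split, beside skeletal muscle markers that were lower in Model for 17 of 17. Of 15 listed, 9 were tested, with 5 lower in Model, 4 higher and a median log2 fold change over Ctrl of -0.64. These counts are near the shares over all genes tested, 41.4% lower and 49.1% higher. Six4, a homeobox factor of the myogenic program, had 1.1, 3.34, 2.82 and 2.84 CPM in M+NSPCC1 libraries, 1.99, 0.927, 2.18 and 1.77 CPM in Model libraries and 19.6, 18, 17.2 and 18.2 CPM in Ctrl libraries. The Ctrl libraries stood apart from all 8 others, and the log2 fold change of Model over Ctrl was -3.402 ± 0.35 (SE, edgeR adjusted p = 4.52e-06). Pitx3 fell by 2.51 on the log2 scale, with under 3 CPM in every library.

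The 4 members of this list that rose were Tbx1, Foxo3, Foxo1 and Foxk1, and Foxo4 was among the 5 that fell. Of 5 myogenic factors outside these families, 4 were lower in Model and Mef2d was higher at 1.49, with Myog at -5.18, Myf6 at -3.14 and Mef2c at -2.63 (log2 fold change over Ctrl). Foxk1, a forkhead factor of muscle progenitors, had 93.9, 78.2, 73.7 and 76.8 CPM in M+NSPCC1 libraries, 84.7, 79.3, 82.1 and 90.9 CPM in Model libraries and 82.2, 67.8, 66.98 and 61.6 CPM in Ctrl libraries. The groups overlapped through Ctrl 01, and the log2 fold change of Model over Ctrl was 0.27 ± 0.10 (SE, edgeR adjusted p = 0.0255). The call was lost without Ctrl 02, Ctrl 03, Ctrl 04 or Model 04, with log2 fold changes of 0.22 to 0.26 without these libraries, and also under the size factors of DESeq2.

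The Foxo factors, which answer to insulin signalling and stress, did not move as 1 group. Foxo3 had 163, 187, 205 and 183 CPM in M+NSPCC1 libraries, 231, 247, 212 and 225 CPM in Model libraries and 109, 110.2, 110.03 and 104 CPM in Ctrl libraries. The 3 groups were fully separate, with M+NSPCC1 between Model and Ctrl. Its log2 fold change of Model over Ctrl was 1.08 ± 0.08 (SE, edgeR adjusted p = 3.19e-07). Foxo1 had 143, 157, 144 and 137 CPM in M+NSPCC1 libraries, 183, 158, 159 and 151 CPM in Model libraries and 113, 123, 108 and 119 CPM in Ctrl libraries. Its Model libraries lay above its Ctrl libraries, with a log2 fold change of 0.49 ± 0.08 (SE, edgeR adjusted p = 9.06e-05). Foxo4, on the X chromosome, had 74.9, 80.7, 79.4 and 72.3 CPM in M+NSPCC1 libraries, 78.3, 73.9, 84.1 and 82.8 CPM in Model libraries and 111, 145, 108 and 132 CPM in Ctrl libraries. Here Ctrl libraries were the highest, and the log2 fold change of Model over Ctrl was -0.64 ± 0.10 (SE, edgeR adjusted p = 8.22e-05). Of 6 listed Foxo targets tested, 4 were higher in Model and 1 was lower, beside 49.1% higher and 41.4% lower over all genes tested. The 3 targets with the smallest p were Sesn3 at 1.75, Ccng2 at 0.52 and Cdkn1b at 0.37.

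Among the factors of cell division and stress, 4 of 5 tested were higher in Model and Foxo4 was lower. Of all genes tested, 49.1% were higher and 41.4% lower. Foxm1, which drives mitotic gene expression, rose by a log2 fold change over Ctrl of 2.64 ± 0.21 (SE, edgeR adjusted p = 6.54e-07). It had 85.4, 83.8, 93.7 and 96.3 CPM in M+NSPCC1 libraries, 82.5, 93.7, 52.3 and 86.1 CPM in Model libraries and 17.03, 11.2, 13.2 and 9.17 CPM in Ctrl libraries. Model 03 was the lowest Model library, and all Ctrl libraries lay below it. Listed mitotic targets of Foxm1 were higher for 11 of 11, with a median log2 fold change of 2.69 and with Nek2 at 3.295, Bub1 at 2.97 and Plk1 at 2.69. Klf11, a zinc finger factor of the transforming growth factor beta response, had 46.7, 32.8, 26.1 and 39.8 CPM in M+NSPCC1 libraries, 40.5, 39.3, 44.9 and 35.4 CPM in Model libraries and 30.3, 30.6, 33.6 and 24.4 CPM in Ctrl libraries. The Model libraries lay just above the Ctrl libraries, with a log2 fold change of 0.43 ± 0.17 (SE, edgeR adjusted p = 0.0306). Its call was lost without Ctrl 01, Ctrl 04, Model 01 or Model 03, at 0.35 to 0.44 without these libraries, and also under the size factors of DESeq2.

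Vessel, fat and immune factors had few members each, beside 49.1% higher and 41.4% lower over all genes tested. Foxc1, Foxo1, Klf5 and Gata3 also stand on other role lists and are counted there. Their rises are therefore no separate result on vessel or fat. Of 3 vessel factors tested, Foxc1 and Foxo1 were higher in Model and Klf2 was lower, while endothelial markers held 0.0256% to 0.0328% of the summed count in M+NSPCC1, 0.0164% to 0.0495% in Model and 0.0827% to 0.0988% in Ctrl libraries. Klf2, the flow-induced factor of endothelium that also keeps T cells quiescent, had 52.5, 51.4, 32.7 and 38.5 CPM in M+NSPCC1 libraries, 52.6, 38.3, 65.1 and 34.1 CPM in Model libraries and 179.9, 166, 161 and 168 CPM in Ctrl libraries. All Ctrl libraries exceeded every other library by more than 2-fold, and the log2 fold change of Model over Ctrl was -1.83 ± 0.21 (SE, edgeR adjusted p = 8.44e-06). Of 4 fat factors, Klf5, Foxo1 and Gata3 were higher and Klf15 was lower at -1.41, beside a share of adipocyte markers of 0.0388% to 0.0486% in M+NSPCC1, 0.0324% to 0.0631% in Model and 0.131% to 0.154% in Ctrl libraries.

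The immune list had 8 tested factors, 4 higher and 4 lower in Model. These counts are near the shares over all genes tested, 49.1% higher and 41.4% lower. Immune markers held 0.0952% to 0.139% in M+NSPCC1, 0.0687% to 0.261% in Model and 0.311% to 0.377% in Ctrl libraries. Sox4, a SoxC factor of progenitor cells, had the smallest adjusted p of all members. It had 177, 194, 181 and 203 CPM in M+NSPCC1 libraries, 198, 208, 181 and 219 CPM in Model libraries and 27.9, 27.6, 24.8 and 20.3 CPM in Ctrl libraries. The Model and M+NSPCC1 libraries were tightly grouped far above Ctrl, with a log2 fold change of Model over Ctrl of 3.001 ± 0.11 (SE, edgeR adjusted p = 1.28e-08). Klf13, a zinc finger factor of T cells, had 276, 222, 193 and 227 CPM in M+NSPCC1 libraries, 266, 249, 243 and 246 CPM in Model libraries and 189, 200.2, 178 and 168 CPM in Ctrl libraries. Model libraries did not overlap Ctrl, M+NSPCC1 03 fell inside the Ctrl range, and the log2 fold change of Model over Ctrl was 0.45 ± 0.10 (SE, edgeR adjusted p = 0.001301). Tbx21, the T-bet factor of type 1 helper cells, was under 3 CPM in every library and its log2 fold change of Model over Ctrl was -2.39 ± 0.63 (SE, edgeR adjusted p = 0.00374), and -3.34 without Model 03. Gata3, Foxp1, Klf2, Zeb1 and Zeb2 were the other tested factors on this list.

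The tested HoxB genes and the tested HoxD genes each moved in 1 direction, while the HoxC genes were split. Of 16 Hox genes tested, 7 were higher in Model, 7 were lower and 2 did not pass. Over all genes tested, 49.1% were higher and 41.4% lower, so these counts are near the background. All 6 measured HoxB genes were higher, from Hoxb5 at 1.06 to Hoxb8 at 2.69, with Hoxb4 at 1.24, Hoxb7 at 1.61, Hoxb3 at 2.06 and Hoxb6 at 2.15 between them (log2 fold change over Ctrl). All 3 HoxD genes were lower, with Hoxd8 at -0.99, Hoxd10 at -1.49 and Hoxd9 at -1.84. In the HoxC cluster, Hoxc13 at its posterior end was higher, and Hoxc8, Hoxc6, Hoxc5 and Hoxc4 were lower at -0.85, -0.94, -1.61 and -1.82. Hoxc8, the nearest tested neighbour of Hoxc13 at a gap of 61724 bases, had 27.9, 36.8, 32.7 and 36.3 CPM in M+NSPCC1 libraries, 28.03, 26.97, 41.5 and 26.1 CPM in Model libraries and 58.1, 60.9, 45.2 and 56.4 CPM in Ctrl libraries. Model 03 was the highest Model library and stayed below Ctrl 03, the lowest Ctrl library, with a log2 fold change of -0.85 ± 0.16 (SE, edgeR adjusted p = 4.68e-04). Neither HoxA gene passed in Model against Ctrl. The annotated interval of Hoxb3 contains Hoxb4, and the sources used here do not say whether counting used strand, so reads of overlapping or antisense transcripts in these clusters cannot be told apart.

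**Figure D3:**
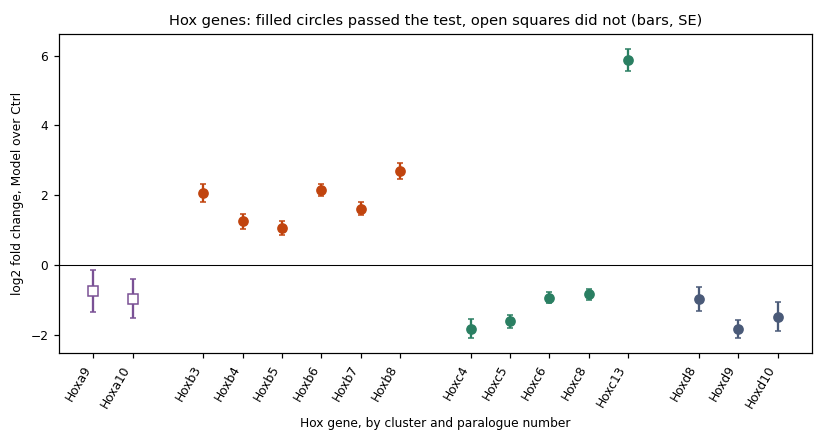
Log2 fold change of Model over Ctrl (vertical axis, points with SE bars) for the 16 tested Hox genes, ordered along the horizontal axis by cluster and paralogue number. Filled circles passed an adjusted p of 0.05 and open squares did not. The 6 HoxB genes lie above 0, the 3 HoxD genes below, and Hoxc13 at 5.88 stands apart from the other HoxC genes.

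Of the Hox cofactors, Meis2 fell and Pbx2 rose. Of the whole positional list of Hox, Meis and Pbx members, 8 of 19 were higher in Model and 9 were lower, with a median log2 fold change of -0.85. Over all genes tested, 49.1% were higher and 41.4% lower, so these counts are near the background. Pbx2, a homeobox partner of Hox proteins, had 79.02, 96.1, 89.1 and 101 CPM in M+NSPCC1 libraries, 86.9, 90.6, 77.6 and 100.4 CPM in Model libraries and 77.9, 78.4, 69.3 and 72.9 CPM in Ctrl libraries. The groups overlapped, the log2 fold change of Model over Ctrl was 0.25 ± 0.10 (SE, edgeR adjusted p = 0.0277), and the call was lost without Ctrl 03, Ctrl 04 or Model 04, at 0.19 to 0.24 without these libraries, and also under the size factors of DESeq2. Meis2 fell by 1.80 on the log2 scale, and Pbxip1, which encodes a protein that binds Pbx factors, fell by 1.88.

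Members that neighbour each other on a chromosome could be compared in pairs. Of 21 pairs of adjacent members with a gap of at most 1000 kb, 17 had the same call in Model against Ctrl and 4 had opposite calls. Most of the 17 lie within Hox clusters. They include Hoxb3 and Hoxb4, which overlap, and Hoxa9 and Hoxa10, of which neither passed. The same share over neighbouring pairs of all genes was not computed, so the count is no result about neighbours. Same-call pairs included Dlx3 and Dlx4 at a gap of 15150 bases, Dlx1 and Dlx2 at 9426, Foxq1 and Foxc1 at 245669 and Irx2 and Irx4 at 625392. The opposite pairs were Hoxc13 and Hoxc8, Hoxb4 and Tbx21, Twistnb and Twist1, and Sox12 and Foxs1. Of these, Twistnb encodes an RNA polymerase I subunit.

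The members on no role list also spread over both directions. Sox12, a SoxC factor, was at 1.13, and Pax1, a paired box factor of the axial skeleton, at 1.75, while Lhx8 was at -2.15 and Tbx4, a hindlimb factor, at -2.24 (log2 fold change of Model over Ctrl). Lhx8 was at -2.89 without Model 03. Pax1 stayed under 4 CPM in all libraries, its groups overlapped, and its call was lost without Ctrl 01, Model 01, Model 02 or Model 03, at 1.58 to 1.73 without these libraries, and also under the size factors of DESeq2. Sox13 had 22.8, 21.2, 17.9 and 18.8 CPM in M+NSPCC1 libraries, 11.5, 4.08, 20.7 and 8.29 CPM in Model libraries and 17.6, 3.53, 10.4 and 4.86 CPM in Ctrl libraries. Its groups overlapped in Model against Ctrl, at 0.29 ± 0.52 (SE, edgeR adjusted p = 0.594), and its direction turned without Model 03, to -0.19. Tbxas1, the thromboxane synthase gene of platelets and macrophages, had 4.68, 10.1, 4.37 and 3.55 CPM in M+NSPCC1 libraries, 2.65, 3.98, 9.23 and 5.13 CPM in Model libraries and 35.8, 26.95, 34.99 and 32.3 CPM in Ctrl libraries. All Ctrl libraries were above the rest, with a log2 fold change of -2.63 ± 0.40 (SE, edgeR adjusted p = 8.38e-05). Twistnb was at 0.42.

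The comparison of M+NSPCC1 with Model asks what the extract changed in skin with the ageing model. No member passed an adjusted p of 0.05 in edgeR's test, and none of the 7638 genes tested did (0.0%). By DESeq2, which was run without edgeR's filter, 3 of 79 members passed, all lower in M+NSPCC1, against 0.976% of all 7786 genes with an adjusted p, 0.205% higher and 0.771% lower. The smallest edgeR adjusted p among members was 0.360, and 5 members had an unadjusted p under 0.05, as did 6.57% of all genes. M+NSPCC1 libraries lay wholly above Model for 1 member and wholly below for 2, Foxo3 and Foxc1, against 1.3% and 2.89% of all genes. The median log2 fold change over members was 0.01. For 56 of 77 members the 95% interval lay within a 2-fold change in either direction, against 77.1% of all genes, and for 31 it lay within 1.5-fold. For the members outside these 56 the interval reached a 2-fold change.

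Hoxa10, Foxo3, Hoxa9 and Runx1t1 were among the 5 members with the smallest p in this comparison, and none of them passed in edgeR. Hoxa10, a posterior homeobox gene (chr6:52231197-52240854) whose promoter is shown above, had 1.1, 0.742, 0.638 and 0.888 CPM in M+NSPCC1 libraries, 0.758, 2.59, 7.14 and 9.23 CPM in Model libraries and 9.401, 10.1, 8.802 and 10.3 CPM in Ctrl libraries. M+NSPCC1 libraries were uniformly low and Ctrl libraries uniformly high, while the Model libraries spread over the whole range between them. The log2 fold change of M+NSPCC1 over Model was -2.53 ± 0.61 (SE, edgeR adjusted p = 0.3595), with a 95% interval of -3.86 to -1.20 and a DESeq2 adjusted p of 0.0119. Hoxa9, its neighbour at a gap of 3826 bases, had 0.55, 2.13, 0.911 and 0.7103 CPM in M+NSPCC1 libraries, 0.947, 2.41, 3.57 and 9.88 CPM in Model libraries and 7.41, 7.07, 7.08 and 6.8 CPM in Ctrl libraries. Model 04 was above every Ctrl library and Model 01 was among the M+NSPCC1 libraries. The log2 fold change of M+NSPCC1 over Model was -1.96 ± 0.64 (SE, edgeR adjusted p = 0.605), with a 95% interval of -3.36 to -0.55.

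For Foxo3, whose values are given above, the log2 fold change of M+NSPCC1 over Model was -0.31 ± 0.08 (SE, edgeR adjusted p = 0.3595), with a 95% interval of -0.48 to -0.14 and a DESeq2 adjusted p of 0.0107. Runx1t1, a corepressor without the Runx DNA-binding domain, had 0, 0, 0 and 0 CPM in M+NSPCC1 libraries, 0, 1.11, 7.14 and 3.45 CPM in Model libraries and 8.18, 7.07, 7.19 and 0 CPM in Ctrl libraries. It was at 0 in all M+NSPCC1 libraries, in Model 01 and in Ctrl 04, and its 1 listed transcript had counts that were not whole. Against a bound of 3 counts over the 4 libraries, M+NSPCC1 was at least 42.9-fold lower than Model and at least 82.2-fold lower than Ctrl, and the DESeq2 adjusted p against Model was 0.0310. The bound covers counting error only. In Model against Ctrl its log2 fold change was -0.94 ± 1.31 (SE, edgeR adjusted p = 0.501).

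**Figure D4:**
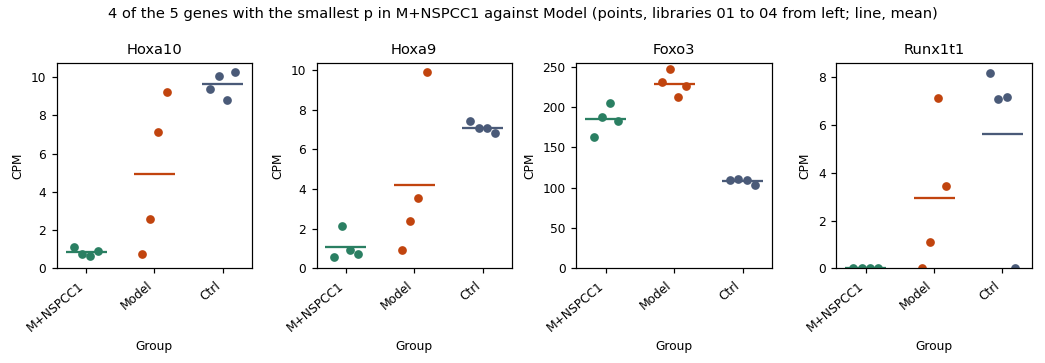
CPM (vertical axes, linear) in each library of M+NSPCC1, Model and Ctrl (horizontal axis) for 4 of the 5 members with the smallest p in M+NSPCC1 against Model, with points for libraries 01 to 04 from left and a line for the group mean. Hoxa10 is near 1 CPM in all M+NSPCC1 libraries and between 0.758 and 9.23 in Model, and the 3 groups of Foxo3 are separate.

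In M+NSPCC1 against Ctrl, 40 members were higher, 33 were lower and 4 did not pass, against 93.2% of all genes that passed, 50.1% higher and 43.1% lower. Groups did not overlap for 41 members higher and 31 lower, against 47.4% and 42.5% of all genes. This comparison and that of Model with Ctrl share the Ctrl libraries, so their values stand side by side and are no independent support. Calls differed for 5 members. Hoxa10 at -3.496 ± 0.62 (SE, edgeR adjusted p = 2.69e-04) and Hoxa9 at -2.71 ± 0.65 (SE, edgeR adjusted p = 0.00206) passed as lower in M+NSPCC1, and in Model against Ctrl they were at -0.96 ± 0.55 (SE, edgeR adjusted p = 0.114) and -0.75 ± 0.60 (SE, edgeR adjusted p = 0.243). Without Model 04 these 2 passed as lower in Model too, Hoxa9 at -1.61 and Hoxa10 at -1.46 on the log2 scale. Runx1t1 passed as lower in M+NSPCC1 (edgeR adjusted p = 0.00648) and not in Model. Foxk1 and Klf11 passed in Model and, at 0.21 ± 0.10 (SE, edgeR adjusted p = 0.0692) and 0.29 ± 0.17 (SE, edgeR adjusted p = 0.118), did not in M+NSPCC1. In M+NSPCC1 against Ctrl, Foxk1 passed without Ctrl 01 at 0.301 and without Model 02 at 0.25, and Klf11 passed without M+NSPCC1 03 at 0.42. Sox13 passed there without Ctrl 01 at 1.69, without Model 02 at 1.19 and without Model 03 at 1.15, and Tbx18 without Model 02 at 0.38. The difference between the 2 comparisons is the test of M+NSPCC1 against Model, which none of the 5 passed in edgeR. Hoxd8 lost its call as lower in M+NSPCC1 without Ctrl 02, Ctrl 03, M+NSPCC1 01, M+NSPCC1 02 or M+NSPCC1 03, at -0.88 to -0.75, and Pitx3 lost it without M+NSPCC1 02 or M+NSPCC1 03, at -1.64 and -1.70.

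Foxj1 and Foxn3 did not reach the filter on counts. Foxj1, the master factor of motile cilia, had 1.01, 0.556, 1.002 and 1.24 CPM in M+NSPCC1 libraries, 0, 0, 0 and 0.559 CPM in Model libraries and 0, 0, 0 and 0 CPM in Ctrl libraries. It was detected in all M+NSPCC1 libraries and in 1 Model library, at least 11.6-fold higher in M+NSPCC1 than the bound that 3 counts over the Ctrl group allow. Foxn3, a forkhead repressor, had 0 CPM in all M+NSPCC1 and Model libraries and 0, 11.05, 9.98 and 15.2 CPM in Ctrl libraries. Against a bound of 3 counts over the 4 libraries, it was at least 133-fold lower in M+NSPCC1 and at least 127-fold lower in Model than in Ctrl. It was seen in 3 of 4 Ctrl libraries alone, through 1 listed transcript whose counts were not whole.

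Within groups, many members departed in the same direction in the same library. The same counts over all genes were not made, so these departures are not shown to be particular to the members. Of the 42 members higher in Model than in Ctrl, Model 03 was the lowest Model library for 28 and Model 02 the highest for 24. Of the 30 members lower in Model, Model 03 was the highest Model library for 24 and Model 02 the lowest for 18. The median log2 difference of Model 03 from the other 3 Model libraries was -0.43 over the risers and 0.64 over the fallers, and that of Model 02 was 0.32 and -0.62. M+NSPCC1 01 was the lowest of its group for 26 of the 42 risers, at a median of -0.20. Hair markers held 4.41% of the summed count in Model 03, the lowest Model share, and 3.32% in M+NSPCC1 01, the lowest M+NSPCC1 share. Fibroblast markers held 0.946% in Model 03 and 0.364% in Model 02, the highest and lowest Model shares. The part of these shares in the differences between libraries was not tested.

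**Figure D5:**
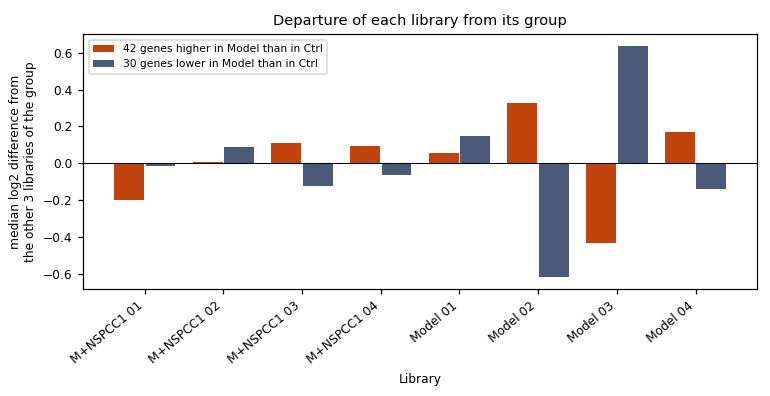
Median log2 difference of each M+NSPCC1 and Model library (horizontal axis) from the other 3 libraries of its group (vertical axis), over the 42 members higher in Model than in Ctrl (orange) and the 30 members lower (blue). Model 03 at -0.43 and 0.64 and Model 02 at 0.32 and -0.62 depart in opposite directions.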

How the data were processed

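RNA was extracted with TRIzol and made into messenger RNA libraries, per the labels' protocols. Samples were grouped by their titles into M+NSPCC1, Model and Ctrl. Per transcript and library, the authors deposited an estimated count and an FPKM value. HISAT2 2.2.1, RSEM 1.3.1, DESeq2 1.34.0 and the build mm10 are named, without roles, in the submitters' processing notes. The sources used here do not say how transcripts were chosen for the tables. Summed counts were not whole in 69.5% of genes (tolerance 0.011 per transcript).

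Estimated counts were summed by gene ID over listed transcripts and rounded. All 12 libraries entered 1 fit in edgeR 4.0.16 (R 4.3.3; quasi-likelihood, TMM factors, default filter, no covariate), with Benjamini-Hochberg adjustment over all 7638 genes tested and a threshold of 0.05. Steps were tested on simulated data. Bounds for counts of 0 use 3 counts over a group, and intervals cover counting error or spread between samples only. Coordinates and promoters came from RefSeq annotation of GRCm38.p6, which matched all 80 members.

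Members and gene lists were chosen with earlier results of these data known. Full values are given for up to 3 members with the highest mean CPM in each role list, the 5 largest rises and falls among members averaging at least 1 CPM, the 5 smallest p in M+NSPCC1 against Model, members whose calls differ between the comparisons with Ctrl, and members at 0 in a whole group. Of other lists the 3 genes with the smallest p are named. A few further members have full values, chosen after their values were seen. Some genes of these families and lists, including some that these rules name, are not reported here.

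The alternatives tried were DESeq2 1.42.0, its size factors within edgeR, other filters, 8 libraries only, a replicate block, limma 3.58.1 on log2(FPKM + 1) and log2(FPKM + 0.1), with and without a minimum mean FPKM of 0.5, a log2 fold change of at least 1, and each library left out. Whole-library depth, genes with whole sums only and identical transcript entries counted once were chosen after seeing the data.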

Additional observations from a re-analysis of the deposited data

Results flagged for a closer look

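The 120 groups of 4 libraries include some at 0 in all 4, which have no range and could not be examined. In 10 of the others, 1 library stood far from the other 3 by Dixon's criterion for the gap over the group's range. The criterion was set at the 95% level, at which chance flags about 1 in 20 groups. In M+NSPCC1 01, Dlx3 was at 588 CPM against 798 to 839 in the other 3 libraries, Foxe1 at 58.1 against 81.5 to 86.0, and Grhl3 at 98.3 against 66.7 to 72.1. In Model 03, Dlx2 was at 26.4 CPM against 51.6 to 55.45, Foxe1 at 50.1 against 92.5 to 99.2, and Hoxc8 at 41.5 against 26.1 to 28.0. In Model 04, Foxj1 was at 0.559 CPM and the other 3 Model libraries were at 0. In Ctrl 02, Dlx1 was at 0.773 CPM against 0.111 to 0.216, and Tbx15 at 158 against 170.1 to 172. In Ctrl 04, Runx1t1 was at 0 against 7.07 to 8.18 CPM. Model 03 and M+NSPCC1 01 were the libraries with the lowest share of hair markers in their groups, 4.41% and 3.32%. The cause of these departures was not tested.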

How the results depend on the processing

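The log2 fold changes of the 77 tested members kept their direction and their side of the threshold in 1745 of 1783 values recomputed for Model against Ctrl, 1741 of 1785 for M+NSPCC1 against Ctrl and, for the 5 members followed, 109 of 112 for M+NSPCC1 against Model. With whole sums only, chosen after seeing the data, fewer members were tested, and 26 were higher and 9 lower in Model than in Ctrl, and 26 higher and 10 lower in M+NSPCC1 than in Ctrl. DESeq2 called 3 members lower in M+NSPCC1 than in Model (Foxo3, Hoxa10 and Runx1t1) and 60 of all 7786 genes lower and 16 higher, where edgeR and limma called 0 members. The direction of Sox13 in Model against Ctrl turned to -0.19 without Model 03 and ranged up to 0.83 over the libraries left out, and that of Tbx18 to -0.01 with DESeq2's size factors (-0.00605) and with DESeq2 (-0.00674). Neither had passed, and the cause was not tested. Leaving out each library gave 39 to 42 higher and 30 to 33 lower members in Model against Ctrl, 40 to 44 higher and 32 to 34 lower in M+NSPCC1 against Ctrl, and 0 in M+NSPCC1 against Model.

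With the replicate number as a block, 41 members were higher and 30 lower in Model than in Ctrl, 41 higher and 33 lower in M+NSPCC1 than in Ctrl, and 0 passed in M+NSPCC1 against Model. Same-numbered libraries had correlated deviations of -0.212 to 0.125, so the numbers were not taken to pair the samples. DESeq2's size factors moved the median log2 fold change of all genes in Model against Ctrl to 0.08, from 0.25 with TMM, and whole-library depth moved it to 0.43. With DESeq2's size factors, Foxk1, Grhl3, Klf11, Pax1 and Pbx2 lost their calls in Model against Ctrl, and Foxo1, Klf13 and Pbx2 in M+NSPCC1 against Ctrl. Depth limits values under about 1 CPM most. Single libraries moved the fold changes of Foxp1, Sox5 and Sox6 by over 1.5 times, and the part of depth in this was not tested.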
